A study of Mus musculus with 18 samples.

Results

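The cell cycle genes described here were 44 genes in 4 classes: 14 genes of S phase, 15 of mitosis, 9 of the entry into the cycle in G1, and 6 inhibitors of cyclin-dependent kinases. They were found by the gene name that the array files give each probe, with Cdc2a as the older name of Cdk1, and each gene was read from its brightest probe. All 44 were among the 27962 gene names on the array. Of these, 43 passed the filter on dim probes and stand among the 20426 genes tested. The exception was the inhibitor Cdkn2a, whose probe was well above background in the sample channel on 0 of 18 arrays.

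Each of the 18 arrays compared RNA of sorted thyroid cells from C57BL/6 mice of both sexes, labelled with Cy5, with a common reference RNA from a pool of Swiss Webster tissues, labelled with Cy3. The thyroids were digested and the cells were kept in culture for 2 days before staining with a Hoechst dye and sorting, in the control groups too. Side population cells, which pump the dye out, gave the groups CSP (6 samples, no surgery) and TSP (6 samples, after partial thyroidectomy). Main population cells, which keep the dye, gave CMP (3 samples, no surgery) and TMP (3 samples, after partial thyroidectomy). The design calls the samples biological replicates. How many animals went into a sample and the time after surgery are not given in the sources used here. All values below are log2 ratios of sample to reference or differences between such ratios, so a ratio below 0 means less RNA than in the tissue pool.

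A cell enters the cycle when D-type cyclins bind Cdk4 or Cdk6 and the pair phosphorylates the retinoblastoma protein, which frees E2F factors to switch on the genes of S phase. Cyclin E with Cdk2 then starts DNA replication from origins licensed by Cdc6, Cdt1 and the Mcm helicase, and cyclins A and B with Cdk1 carry the cell into mitosis. Inhibitors of the Cip/Kip family (Cdkn1a, Cdkn1b, Cdkn1c) and the Ink4 family (Cdkn2a, Cdkn2b, Cdkn2c) hold these kinases back. Thyroid follicular cells divide rarely in the adult gland and can be brought to divide in culture.

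The 18 arrays were on 5 slides. CSP arrays were on slides 1, 3 and 4 and CMP arrays on slides 2, 4 and 5, so only slide 4 held both. TSP arrays were on slides 1, 3 and 5 and TMP arrays on slides 2, 4 and 5, so only slide 5 held both. Population and slide can thus be told apart only in part. Between 38.8% and 72% of an array's spots were well above background, and 34 of the 44 genes were well above background on all 18 arrays. Arrays TSP 1 and TSP 2 went against their label: their median correlation over all genes was 0.949 with the 6 main population arrays and 0.695 with the other 10 side population arrays. Their mean over 10 epithelial markers was 4.05 and 3.96, against 0.07 to 0.9 on the other TSP arrays and 3.34 to 3.97 in TMP. The main results on TSP are therefore given with and without these arrays. The pair was set aside for its likeness to the main population over all genes. Fits without it thus favour a difference between TSP and TMP, and their adjusted p follow that choice. Of the other CSP and TSP arrays, CSP 6 had the highest means of epithelial markers (2.32) and of 13 follicular markers (1.03).

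The genes of S phase and mitosis are known to share short motifs near their start sites, bound by E2F factors, NF-Y and the DREAM complex. The 250 bases before the start were read for 35 of the 44 genes from the RefSeq promoters of build GRCm38.p6. Gmnn, Mcm4, Ccna2, Aurkb, Foxm1, Ccnd1, Ccnd2, Ccne2 and Cdkn1c had no entry. A pair of mitosis genes, 1 gene of S phase and the kinase Cdk6 are printed, to show the motifs of the mitosis and S phase classes beside a kinase that the arrays set apart. Capitals mark CCAAT and TTTGAA (CHR-type letters, not shown to be a CHR element) in Ccnb2 and Cdc2a. They mark TTTGGCGC and TTTCGCGC (E2F-type letters) in Mcm6, and any of these 4 in Cdk6. All were sought on either strand. In Ccnb2 the TTTGAA lies 167 to 162 bases before the start, farther out than its CCAAT matches. The stretches are chr9:70421555-70421804 (minus strand), chr10:69352913-69353162 (minus), chr1:128359706-128359955 (minus) and chr5:3343643-3343892 (plus), each printed 5′ to 3′ up to the base before the start.
Ccnb2: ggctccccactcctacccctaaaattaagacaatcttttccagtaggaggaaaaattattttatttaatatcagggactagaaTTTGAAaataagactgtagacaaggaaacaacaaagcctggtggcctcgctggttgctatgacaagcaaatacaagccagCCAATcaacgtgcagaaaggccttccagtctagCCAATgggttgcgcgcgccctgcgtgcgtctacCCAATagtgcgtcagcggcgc
Cdc2a: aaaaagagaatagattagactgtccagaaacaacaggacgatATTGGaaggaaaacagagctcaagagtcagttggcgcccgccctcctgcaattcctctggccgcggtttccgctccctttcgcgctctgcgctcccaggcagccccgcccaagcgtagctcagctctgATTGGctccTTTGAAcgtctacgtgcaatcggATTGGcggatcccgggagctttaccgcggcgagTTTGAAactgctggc
Mcm6: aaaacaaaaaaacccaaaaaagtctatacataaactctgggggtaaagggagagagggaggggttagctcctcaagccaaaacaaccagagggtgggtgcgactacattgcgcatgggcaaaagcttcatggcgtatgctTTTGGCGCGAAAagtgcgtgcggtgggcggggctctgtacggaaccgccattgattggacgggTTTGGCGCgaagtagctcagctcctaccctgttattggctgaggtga
Cdk6: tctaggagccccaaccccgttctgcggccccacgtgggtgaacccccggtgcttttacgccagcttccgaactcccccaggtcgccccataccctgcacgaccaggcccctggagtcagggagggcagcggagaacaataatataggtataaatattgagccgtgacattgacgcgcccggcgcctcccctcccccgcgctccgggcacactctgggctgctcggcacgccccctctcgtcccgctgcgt
Capitals mark 4 matches in Ccnb2, 5 in Cdc2a, 3 in Mcm6 and 0 in Cdk6. The motifs in capitals differ between these genes, so the counts cannot be compared. CCAAT in Mcm6 and TTTCGCGC in Cdc2a were present and left in lower case.

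CCAAT was in the 250 bases of 10 of the 12 mitosis genes with an entry, 8 of 12 genes of S phase, 2 of 6 G1 genes and 1 of 5 inhibitors, against 37.5% of the 27025 genes in the RefSeq table. TTTGAA was in 5 of 12 mitosis genes (Mki67, Top2a, Ccnb2, Cdc2a and Cdc20), 1 of 12 genes of S phase, 0 of 6 G1 genes and 1 of 5 inhibitors, against 18.3%. TTTGGCGC was in Mcm5 and Mcm6, against 0.485% of all genes, and TTTCGCGC was in Mcm5, Mcm6 and Cdc2a, against 0.3%. In Mcm5 and Mcm6 these last motifs overlapped each other. TTTCCCGC was in Cdc6, Mcm7, Cdk2 and Cdkn2a, against 1.03% of all genes. GGGCGG, the GC box, was in 27 of 35 genes, against 35.4%. The other 5 of the 11 motifs searched were TTCGAA (3 of 35, against 1.55%), TTCCCGCC (1 of 35, against 2.13%), CACGTG (3 of 35, against 6.86%), TTTGGCGG (0 of 35, against 0.503%) and a longer E2F consensus site (0 of 35, against 0.107%). These counts describe letters in a fixed window, with no matching for base composition.

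The first comparison asked how the side population of control thyroids differs from the main population. Of the 43 genes tested, 6 were lower in CSP than in CMP and 0 were higher, with adjusted p from limma under 0.05. They were the D cyclins Ccnd1, Ccnd2 and Ccnd3, their kinase Cdk6, the replication inhibitor Gmnn and the kinase inhibitor Cdkn2b. By class, 4 of 9 G1 genes, 1 of 14 genes of S phase, 1 of 5 inhibitors and 0 of 15 mitosis genes were called. Of all 20426 genes, 14.9% were called in this comparison, 7.26% as lower and 7.63% as higher. The share of the 43 genes called, 14%, was thus close to that of all genes. Without TSP 1 and TSP 2 the same 6 were called, against 19.3% of all genes (10.2% higher and 9.08% lower). With slide as a block as well, 8 were called, all lower, against 21.3% (12.6% higher and 8.68% lower). In pooled cells, fewer cycling cells and less RNA per cell cannot be told apart.

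Ccnd1, the D cyclin that growth factor signals induce, had the largest difference. In CSP its log2 ratio ran from -1.24 through a median of -0.88 to 0.58. It was 2.02, 2.47 and 2.2 in CMP. Every CSP array lay below every CMP array, and CSP 6 was the highest of its group. The difference was -2.89 (SE 0.523, 95% interval -3.98 to -1.79), a 7.39-fold lower level in CSP (adjusted p = 0.00797, limma). Within slide 4, which held CSP 5, CSP 6, CMP 2 and TMP 2, the difference of CSP and CMP was -2.4. The gene has 1 probe, repeated in 10 spots.

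Cdk6, the kinase partner of the D cyclins, followed the same order. Its ratio in CSP ran from -2.51 through a median of -1.68 to -0.99. In CMP it was 0.96, 0.63 and 0.56. All CSP arrays were below the reference and all CMP arrays above it. The difference was -2.49 (SE 0.451, interval -3.44 to -1.55), a 5.62-fold lower level (adjusted p = 0.00797, limma). This probe (mm7, chr5:3535293-3535352, per the file headers) was designed on the transcript AK030810. Dimmer probes designed on NM_009873 gave -1.1 and -1.11, with adjusted p over all probes of 0.157 and 0.0311 (limma). They were well above background on 13 and 4 arrays. Both the size and the call thus depend on the probe. Cdk4, the other kinase of the D cyclins, differed by 0.36 (interval -0.12 to 0.85, adjusted p = 0.326, limma), and its CSP and CMP arrays overlapped.

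Ccnd3, another D cyclin, ran from -2 through -1.52 to -0.93 in CSP. It was -0.05, -0.53 and 0.06 in CMP. The groups did not overlap, and the difference was -1.35 (SE 0.296, adjusted p = 0.00922, limma). Ccnd2, the remaining D cyclin, ran from -0.59 through 0.06 to 0.94 in CSP and was 0.87, 1.19 and 1.22 in CMP. Here CSP 6, at 0.94, lay above CMP 1, so the groups overlapped. The difference was -1.02 (SE 0.271, adjusted p = 0.0177, limma). The other probes gave -1.18 and -0.26, with adjusted p over all probes of 0.0104 and 0.576 (limma).

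Gmnn encodes geminin, which binds Cdt1 and keeps an origin from being licensed again. It ran from -1.42 through -1.02 to -0.12 in CSP. In CMP it was 0.04, 1.18 and 1.3. The groups did not overlap, and CSP 6 lay just below CMP 1. The difference was -1.78 (SE 0.376), a 3.44-fold lower level (adjusted p = 0.00863, limma). Cdkn2b, the Ink4 inhibitor of Cdk4 and Cdk6, ran from 0.45 through 0.62 to 0.94 in CSP. It was 1.35, 1.59 and 1.42 in CMP. The groups did not overlap, but the difference of -0.8 (SE 0.264) was just under the threshold (adjusted p = 0.0494, limma). Of 49 alternative fits, Cdkn2b was called in 18, Ccnd2 in 41, Gmnn, Ccnd3 and Cdk6 in 47 each and Ccnd1 in 48. These are not 49 separate checks, since many leave out single arrays and overlap. With no block, fits that drop only TSP or TMP arrays keep the difference of CSP and CMP and alter only its spread.

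**Figure D1:**
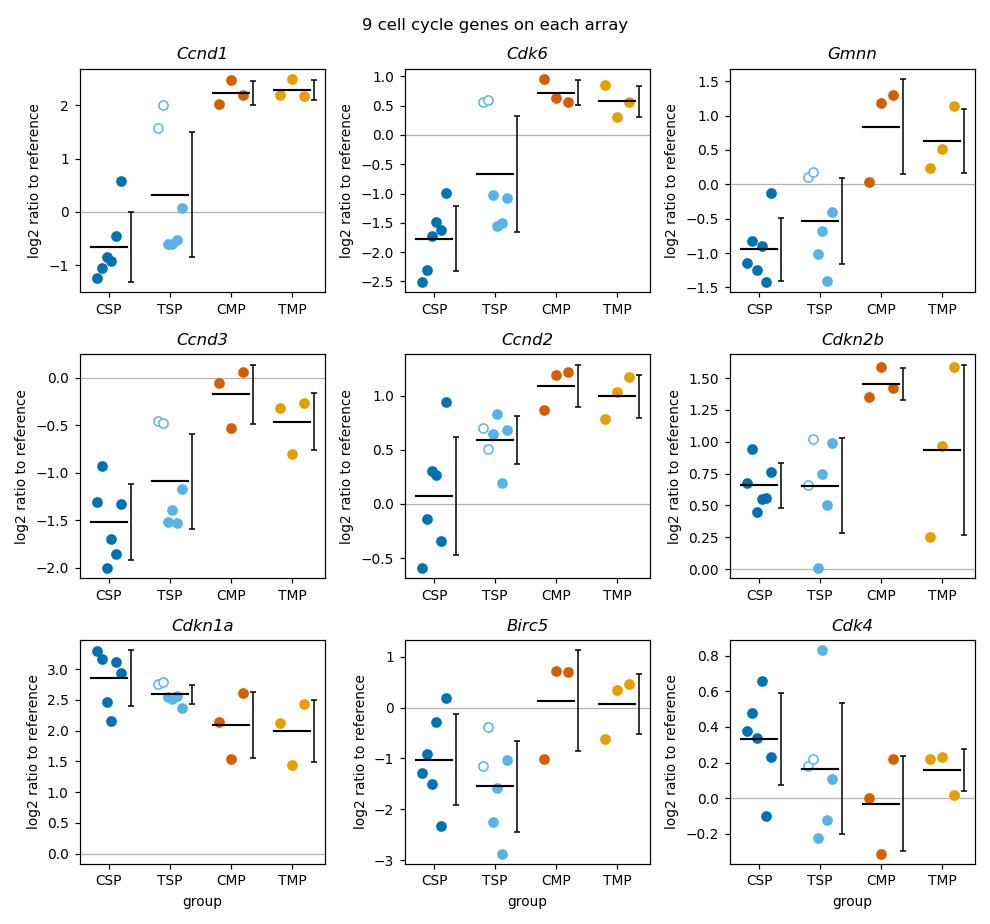
Log2 ratio to the reference (vertical axis) of 9 cell cycle genes on each array, by group. Points are arrays, horizontal bars are group means, error bars are 1 SD, and open points are TSP 1 and TSP 2. In the panels of Ccnd1, Cdk6 and Ccnd3 every CSP array lies below every CMP array, and the open TSP points lie with the main population.

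The rest of the S phase genes were not called. Cdc6, which loads the Mcm helicase, differed by -0.97 (interval -1.68 to -0.25, adjusted p = 0.0623, limma). Mcm4, a helicase subunit, differed by -0.81 (interval -1.44 to -0.19, adjusted p = 0.0742, limma). Among the 14 genes of S phase, 11 had a difference below 0, with a median of -0.48, against a median of 0.06 over all genes. With slide as a block 13 lay below 0, and the medians were -0.66 and 0.13. Tyms, the enzyme that makes thymidylate, had the highest difference of this class, 0.83 (interval 0.01 to 1.65, adjusted p = 0.165, limma). Its CSP arrays ran from 0.9 to 1.41, and CMP held -0.57, 0.94 and 0.59. With slide as a block, 11 of the 43 genes were called: the 6 above, Cdc6 (-1.46), Cdt1 (-0.73), Mcm4 (-1.01) and Mad2l1 (-1.37) as lower, and Cdkn1a (0.9) as higher. That fit called 28.3% of all genes (17.5% higher and 10.8% lower), and the share of the 43 was 25.6%.

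Of the 15 mitosis genes, 14 had a difference below 0 between CSP and CMP, with a median of -0.44, and 0 were called. The size of this median depended on the fit. With slide as a block it was -1.07, with 1 gene called (Mad2l1), against 28.3% of all genes. With the block and without TSP 1 and TSP 2 it was -0.9. These genes mostly moved together between arrays, so their signs are not 15 separate results. In the fit with no block, the lowest adjusted p was that of Ccna2, cyclin A, with a difference of -1.26 (interval -2.36 to -0.15, adjusted p = 0.116, limma). Mki67, the proliferation marker Ki-67, differed by -1.21 (interval -2.37 to -0.05, adjusted p = 0.151, limma). Its ratio in CSP ran from -4.21 through -2.51 to -1.06, and in CMP it was -2, -1.08 and -1.07. The intervals of this class were wide: that of Ccnb2, cyclin B2, ran from -1.72 to 0.92. Ccnb1, cyclin B1, gave 0.13 with its brightest probe, and -1.42 and -0.86 with a pair of dimmer ones, so its direction is uncertain.

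**Figure D2:**
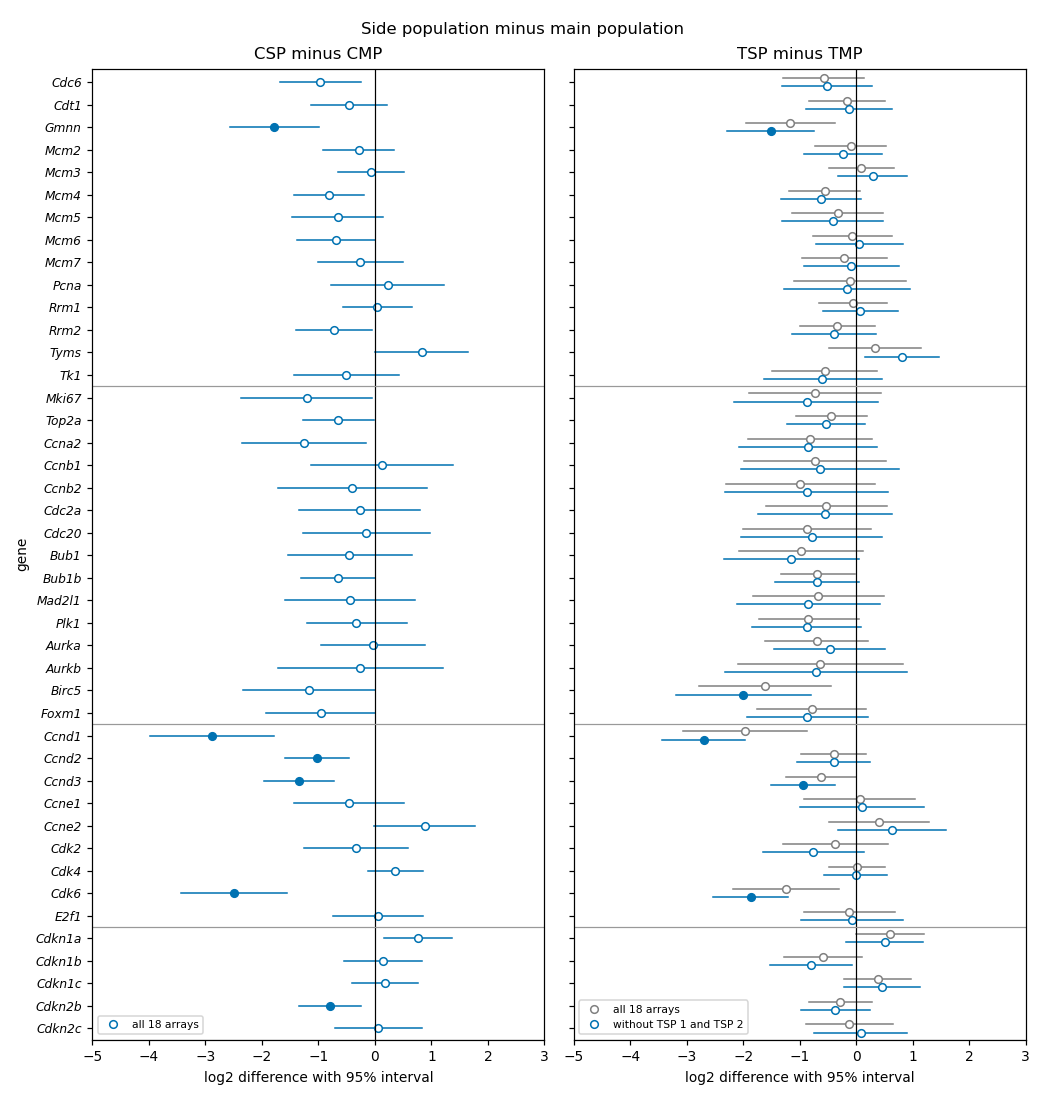
Log2 difference between side and main population (horizontal axis, points) with its 95% interval (lines) for each of the 43 genes (vertical axis), CSP minus CMP at left and TSP minus TMP at right. Filled points passed an adjusted p of 0.05: 6 at left, and at right 5 without TSP 1 and TSP 2 (blue) and 0 with all 18 arrays (grey).

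The kinase inhibitors did not move one way. Cdkn1a, the p53 target p21, ran from 2.15 through 3.03 to 3.3 in CSP and was 2.14, 1.54 and 2.61 in CMP. It lay above the reference on all 18 arrays, and its groups overlapped. The difference was 0.76 (interval 0.16 to 1.36, adjusted p = 0.0823, limma). Cdkn1b (p27) differed by 0.14, Cdkn1c (p57) by 0.18 and Cdkn2c (p18) by 0.06, and none was called. With slide as a block these were -0.46, 0.48 and -0.22, again with none called. The sign for Cdkn1b and Cdkn2c thus depended on the fit. The Cdkn1b probe was designed on the transcript AK169586, and of the 2 probes on NM_009875 1 was well above background on 3 arrays and 1 on 1 array. The former gave -0.27 (adjusted p over all probes = 0.328, limma), and the latter was not tested.

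The second comparison was between side and main population after surgery. With all 18 arrays, 0 of the 43 genes were called between TSP and TMP, as were 0% of all 20426 genes, though 2795 genes had an unadjusted p under 0.05 (limma). Without TSP 1 and TSP 2, 5 of the 43 genes were lower and 0 higher: Ccnd1, Cdk6, Gmnn, Ccnd3 and the mitosis gene Birc5. That is 11.6% of them, and 14.8% of all genes were called in the same fit, 7.01% as lower and 7.75% as higher. With slide as a block as well, 6 were lower, the 5 and Cdkn1b, against 15.9% of all genes (8.49% higher and 7.39% lower). With slide as a block and all arrays, 0 of 43 were called, against 1.16% (0.822% higher and 0.333% lower). Left out alone, TSP 1 or TSP 2 each gave 1 call, Ccnd1. The share of all genes called in those fits is not given here, so this call is not read as a result about the 43 genes.

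In TSP, Ccnd1 was 1.58 and 2.01 on TSP 1 and TSP 2 and -0.61, -0.6, -0.52 and 0.08 on TSP 3 to TSP 6. It was 2.2, 2.5 and 2.17 in TMP. All TSP arrays lay below all TMP arrays, but the first pair lay close to them. The difference was -1.97 (SE 0.523, adjusted p = 0.25, limma) with all arrays and -2.7 (SE 0.348, adjusted p = 4.46e-05, limma) without the pair. Within slide 5, which held TSP 5, TSP 6, CMP 3 and TMP 3, the difference of TSP and TMP was -2.39. The pair was left out for its likeness to the main population, so the smaller adjusted p without it follows that choice.

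Cdk6 was 0.57 and 0.59 on TSP 1 and TSP 2, which lay inside the TMP values of 0.85, 0.31 and 0.56. On the other 4 TSP arrays it was -1.03, -1.56, -1.5 and -1.07. The difference was -1.25 (SE 0.451, adjusted p = 0.256, limma) with all arrays and -1.87 (SE 0.314, adjusted p = 0.000482, limma) without the pair. Gmnn ran from -1.41 through -0.54 to 0.18 in TSP and was 0.24, 0.51 and 1.14 in TMP. Its groups did not overlap, and its difference was -1.17 (adjusted p = 0.25, limma) with all arrays and -1.51 (adjusted p = 0.00805, limma) without the pair. Ccnd3 was -0.45 and -0.48 on the pair and -1.53 to -1.17 on the other 4, with -0.32, -0.8 and -0.26 in TMP. Its difference moved from -0.63 (adjusted p = 0.355, limma) to -0.94 (adjusted p = 0.0239, limma). Ccnd2 differed by -0.4 in both fits and was called in neither.

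Birc5 encodes survivin, a subunit of the chromosomal passenger complex with Aurkb. In TSP it ran from -2.87 through -1.37 to -0.39, and it was -0.61, 0.35 and 0.46 in TMP. TSP 2, at -0.39, lay above TMP 1. Its difference was -1.61 (SE 0.558, adjusted p = 0.25, limma) with all arrays and -2 (SE 0.565, adjusted p = 0.0219, limma) without the pair, a 4-fold lower level. All 15 mitosis genes had a difference below 0 in both fits, with a median of -0.73 and, without the pair, -0.85. The medians of all genes were 0.02 and 0.04. With slide as a block the medians of the 15 were -1.16 and, without the pair, -1.28, against 0.05 over all genes in each. These genes mostly moved together between arrays and the fits share arrays, so their signs are not 15 separate results. Birc5 was the only one of the 15 called, and only without the pair. Bub1, a spindle checkpoint kinase, differed by -0.98 with all arrays. Without the pair it differed by -1.16, with no overlap between the groups (adjusted p = 0.208, limma).

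Without the pair, the arrays of 6 of the 43 genes lay all lower in TSP than in TMP, the 5 called genes and Bub1, and those of Tyms lay all higher. Over all genes, 11.2% lay all lower and 12.6% all higher. With all arrays, 2 of the 43 lay all lower, Ccnd1 and Gmnn, against 2.47% of all genes. In CSP against CMP, 6 lay all lower, against 9.2%: Gmnn, Rrm2, Ccnd1, Ccnd3, Cdk6 and Cdkn2b. Rrm2, the small subunit of ribonucleotide reductase, differed by -0.73 there (adjusted p = 0.13, limma).

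Surgery within a population was compared next. Between TSP and CSP 0 of the 43 genes were called, as were 0% of all genes, and 1856 genes had an unadjusted p under 0.05 (limma). Without TSP 1 and TSP 2, 0 of 43 and 0% of all genes were called as well. The member with the lowest adjusted p was Cdk6, with a difference of 1.1 (interval 0.33 to 1.88, adjusted p = 0.499, limma), which became 0.48 (interval -0.08 to 1.04) without TSP 1 and TSP 2. Ccnd1 went from 0.98 to 0.24 in the same way. With slide as a block, 0 of 43 were called, against 4.4% of all genes (1.73% higher and 2.67% lower), and without the pair as well 0 of 43, against 0.0881% (0.049% higher and 0.0392% lower). Between TMP and CMP 0 of 43 were called and 0% of all genes, with 24 genes at an unadjusted p under 0.05 (limma). That fit does not pair the arrays, although same-numbered CMP and TMP arrays share a slide. With slide as a block, 0 of 43 and 0% of all genes were called. Then 131 genes had an unadjusted p under 0.05 (limma). The differences of the 43 genes between TMP and CMP ran from -0.52 to 0.42. Of the 14 genes of S phase, 13 lay below 0 (median -0.18). Of the 15 mitosis genes, 7 lay below 0 and 7 above. The median over all genes was 0. The interaction of surgery and population also gave 0 of 43 and 0% of all genes, with 219 genes at an unadjusted p under 0.05 (limma). It gave the same counts of calls without the pair. For Ccnd1 the interaction was 0.92 (interval -0.63 to 2.47) and without the pair 0.18 (interval -0.82 to 1.18). For Cdk6 it was 1.25 (interval -0.09 to 2.58) and 0.62 (interval -0.28 to 1.53). The comparisons of CSP with CMP and of TSP with CSP share the CSP arrays, and likewise for the other groups.

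Mitosis genes varied more between arrays of 1 group than most genes. Their residual SD within groups had a median of 0.82, with 13 of 15 above the all-gene median of 0.46. It was 0.49 for genes of S phase, 0.65 for G1 genes and 0.4 for inhibitors. Without TSP 1 and TSP 2 the medians were 0.47 for the G1 genes and 0.85 for the mitosis genes. The lower median of the G1 genes came from a few of them: the residual SD went from 0.81 to 0.47 for Ccnd1, from 0.69 to 0.41 for Cdk6, from 0.42 to 0.32 for Ccnd3 and from 0.67 to 0.61 for Cdk2. It was slightly higher without the pair for the other 5 of the 9, as for Ccne1 (0.72 and 0.77).

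**Figure D3:**
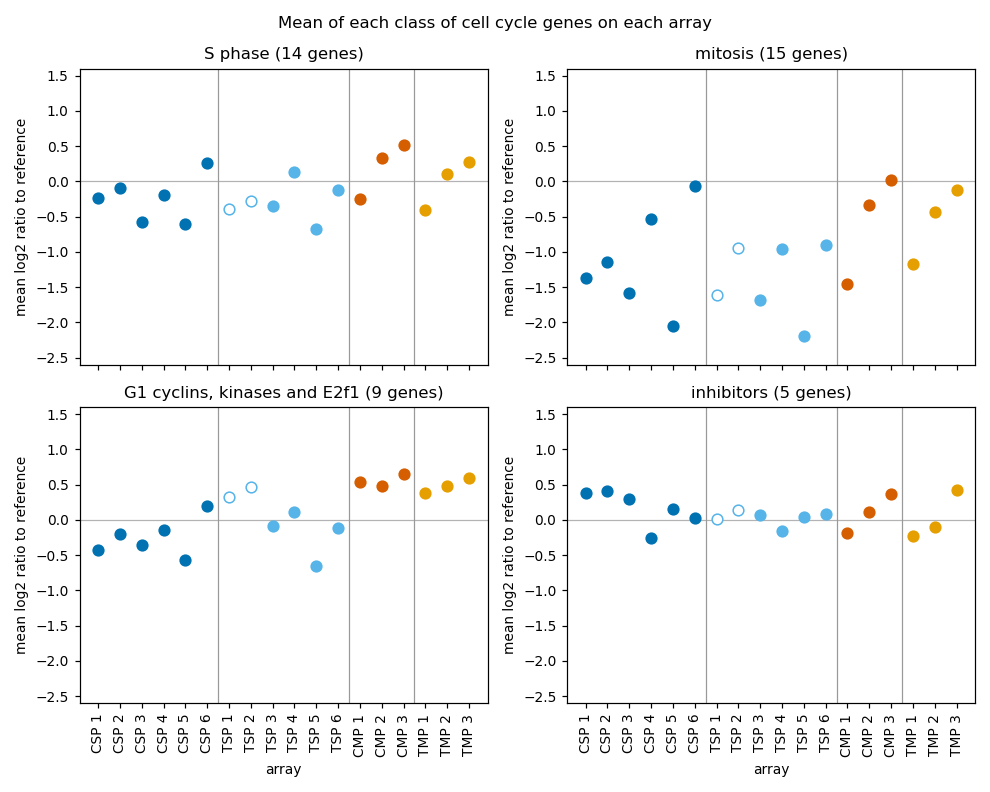
Mean log2 ratio to the reference (vertical axis) over the genes of each class on each of the 18 arrays (horizontal axis). Colours mark the 4 groups and open points are TSP 1 and TSP 2. The mitosis panel spans -2.19 to 0.02 with large gaps inside every group, and the G1 panel separates main from side population except for the open points.

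The mean of the 15 mitosis genes was -1.37, -1.14, -1.58, -0.54, -2.05 and -0.07 on CSP 1 to CSP 6. It was -1.45, -0.33 and 0.02 in CMP. In TSP it ran from -2.19 through -1.29 to -0.9, and in TMP it was -1.17, -0.44 and -0.13. Every group thus held arrays with mitosis genes far below the reference and arrays nearer to it, and the ranges of all 4 groups overlapped. CSP 6 exceeded CSP 5, on the same slide, in 15 of 15 mitosis genes (median 2.02) and 14 of 14 genes of S phase (median 0.91). TSP 6 exceeded TSP 5, also on 1 slide, in 15 of 15 (median 1.25) and 14 of 14 (median 0.49). TSP 4 exceeded TSP 3 and TSP 2 exceeded TSP 1 in 15 of 15 mitosis genes, by medians of 0.65 and 0.73, and in 13 and 10 of 14 genes of S phase, by medians of 0.42 and 0.08. The remaining pairs of CSP arrays on a slide were less uniform: CSP 4 exceeded CSP 3 in 13 of 15 mitosis genes (median 0.77) and CSP 2 exceeded CSP 1 in 12 of 15 (median 0.31). The median over all genes differed by -0.05 to 0.07 in these 6 pairs.

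Among the inhibitors, CSP 6 exceeded CSP 5 in 2 of 5 (median -0.18), TSP 6 exceeded TSP 5 in 3 of 5 (0.18), TSP 4 exceeded TSP 3 in 1 of 5 (-0.11) and TSP 2 exceeded TSP 1 in 4 of 5 (0.24). CMP 3 exceeded CMP 1 in 4 of 5 inhibitors (0.47) and TMP 3 exceeded TMP 1 in 5 of 5 (0.48), so these genes went with the mitosis genes in some pairs and not in others. In the main population, CMP 1 was the lowest of its group in 14 of 15 mitosis genes and 12 of 14 genes of S phase, and TMP 1 in 14 of 15 and 13 of 14. Both arrays were on slide 2, so slide and sample cannot be told apart there. TSP 1 and TSP 2, which resembled the main population in Ccnd1 and Cdk6, had mitosis means of -1.61 and -0.95. These lay within the range of the other TSP arrays. TSP 5, with the lowest mitosis mean of the 18 arrays, also had the lowest share of spots well above background (38.8%), while CSP 5, with the next lowest mean, had 70.8%. The part of array quality in these values was not tested.

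**Figure D4:**
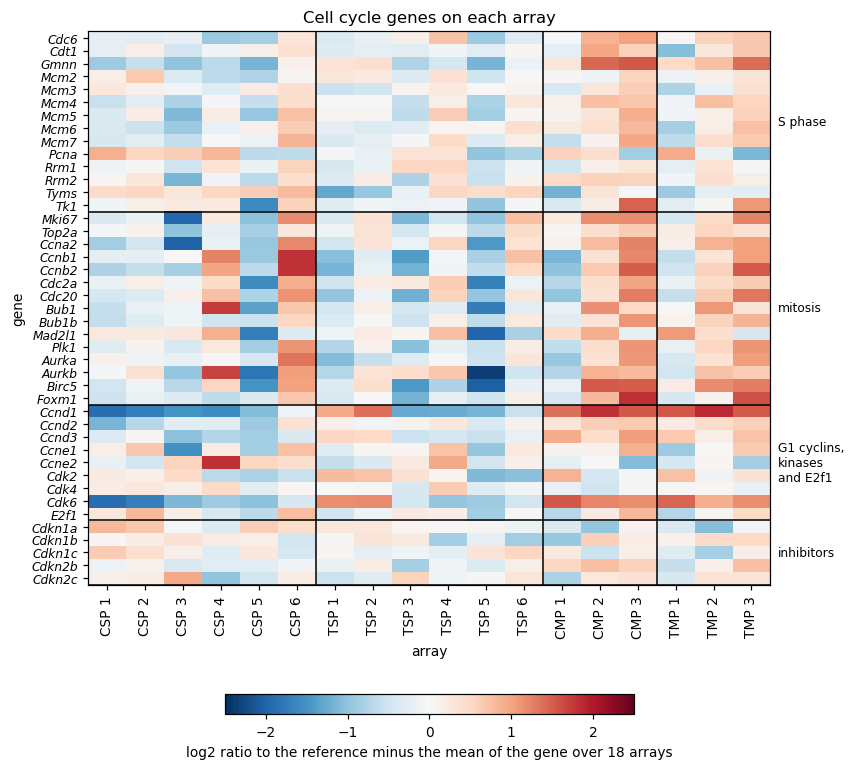
Heat map of the 43 cell cycle genes (rows, by class) on the 18 arrays (columns, by group). Colour is the log2 ratio to the reference minus the gene's mean over 18 arrays, cut at -2.5 and 2.5. CSP 5, CSP 6, TSP 5 and CMP 3 keep nearly one colour through the mitosis block, with Mad2l1 as an exception on CSP 6 and CMP 3, while Ccnd1 and Cdk6 change colour between most CSP arrays and CMP.

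Single genes departed from their class. Pcna, the sliding clamp of DNA polymerase, lay between -1.01 and -0.54 on CSP 5, CSP 6, TSP 5, TSP 6, CMP 3 and TMP 3, and between -0.08 and 1.04 on the other 12 arrays. Those 6 arrays hold all of slide 5 and part of slide 4 and come from all 4 groups. On CMP 3, where the mean of the S phase genes was 0.51, Pcna was -0.77. Mad2l1, a spindle checkpoint protein, was likewise below 0 on those 6 arrays (-1.79 to -0.04) and above 0 on the other 12 (0.08 to 1.25). Tyms was -0.66 and -0.34 on TSP 1 and TSP 2 and 0.45 to 1.16 on the other TSP arrays. Cdkn1c, an imprinted inhibitor, lay far below the reference on every array, from -3.98 to -2.52.

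Further genes of the same pathways were read from 4 lists. Of 45 other mitosis genes tested, 6 were lower in CSP than in CMP and 0 higher, with 38 below 0 and a median of -0.51. Here too the signs of the genes are not separate results. Over all genes in that fit, 7.26% were lower and 7.63% higher, which is the background for the counts of all 4 lists. The largest falls were in Prc1, which bundles the midzone of the spindle (-2.26, adjusted p = 0.0239, limma), Ect2, an activator of cytokinesis (-2.08, adjusted p = 0.0226), and Cenpf, a kinetochore protein (-1.58, adjusted p = 0.0395). The mean over the 45 genes was 0.19 on CSP 6 and -1.18 to -0.43 on the other CSP arrays, against -0.65, 0.24 and 0.34 in CMP. Only 27 and 29 of the 45 were well above background on CSP 1 and CSP 2. It was 40 to 42 on CSP 3 to CSP 6 and 36 to 45 in CMP. Of 29 other genes of S phase, Uhrf1 (-1.38, adjusted p = 0.0318, limma) and Pold1 (-1.36, adjusted p = 0.0117) fell and Atad2 rose (0.94, adjusted p = 0.0489). Uhrf1 maintains DNA methylation and Pold1 is the catalytic subunit of DNA polymerase delta.

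Of 26 other G1, E2F, Rb and checkpoint genes, 3 rose and 2 fell in CSP, against 7.63% and 7.26% of all genes. Mdm2, which degrades p53, was higher by 1.21 (adjusted p = 0.0117, limma), Cdk7, the kinase that activates other cyclin-dependent kinases, by 1.16 (adjusted p = 0.0217), and Myc by 0.9 (adjusted p = 0.0408). E2f8, a repressing E2F factor, was lower by a difference of -1.62 (adjusted p = 0.0265, limma), and Rbl1, the pocket protein p107, by -1.19 (adjusted p = 0.0104). Of 17 other inhibitors and growth arrest genes, 3 rose and 0 fell, against the same shares of all genes. They were Gadd45g, a stress-induced growth arrest gene (1.94, adjusted p = 0.0128, limma), Cdkn2d, the Ink4 inhibitor p19 (1.66, adjusted p = 0.0339), and the transcription factor Foxo1 (1.52, adjusted p = 0.0488).

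Between TSP and TMP 0 genes of these lists were called with all arrays. The lowest adjusted p were those of Uhrf1 (-1.14, adjusted p = 0.26, limma), Tpx2 (-1.43, adjusted p = 0.25), Chek1 (-0.93, adjusted p = 0.321) and Sesn1 (-0.68, adjusted p = 0.3). Without TSP 1 and TSP 2, 3 of 45 mitosis genes fell, Cenpf (-1.74), the spindle assembly factor Tpx2 (-1.72) and Nusap1 (-1.64), and 0 rose. The share of mitosis genes that fell was near the 7.01% of all genes called lower in that fit, where 7.75% were called higher. In the same fit 4 of 17 inhibitors and growth arrest genes rose, among them Gas1 (2.02), Foxo1 (1.71) and Cdkn2d (1.65), and Sesn1 fell by 0.93 on the log2 scale. Tfdp2 (-1.37), a partner of E2F factors, the checkpoint kinase Chek1 (-1.26) and Trp53 (-0.99) fell, Pold1 (-1.01) fell, and Atad2 (1.07) rose. Adjusted p of these ran from 0.0036 to 0.0499 (limma). Between TSP and CSP, between TMP and CMP and in the interaction, 0 genes of the 4 lists were called with all arrays. Without TSP 1 and TSP 2 it was 0 as well. With all arrays, the lowest adjusted p in these comparisons was that of Rbl1 between TSP and CSP, with a difference of 0.81 (adjusted p = 0.428, limma).

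Markers of cell types differed between the same groups. In CSP against CMP, 8 of 13 follicular markers and 10 of 10 epithelial markers were lower, and 9 of 10 endothelial and 7 of 10 fibroblast markers were higher, against 7.26% of all genes lower and 7.63% higher. The mean of the follicular markers ran from -0.48 to 1.03 in CSP and from 1.79 to 2.26 in CMP, with 3 of 13 well above background on CSP 1 and CSP 2. Endothelial markers ran from 0.57 to 1.97 in CSP and from -2.28 to -1.56 in CMP. In lymphocyte markers 0 of 8 were called. Smooth muscle and pericyte markers ran from -0.72 to 0.13 in CSP and from -1.81 to -0.99 in CMP. Macrophage and leukocyte markers ran from -3.35 to -2.59 in CSP and from -2.42 to -2.12 in CMP. The ranges overlapped for C cell and parathyroid markers (1.63 to 3.83 and 1.91 to 2.07) and for erythroid markers (-4.22 to -3.14 and -3.94 to -2.48). The part of these cell types in the differences of the cell cycle genes was not tested.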

How the data were processed

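Gene expression was measured on 18 Agilent arrays with 2 colours and no dye swap. Per the file headers, the deposited scanner files hold intensity values of each channel, local background and processed signals from Agilent Feature Extraction (version 8.5.1.1 per the submitters' processing notes, 9.5.1.1 per the file headers). The deposited log10 ratio equalled that of processed red over green within 0.001 on 84.7% of spots. This deposited ratio was not used in a test. A deposited table of the authors holds log2 ratios for 33040 probes, with its normalization and centring not stated (column medians 0.13 to 0.3). Of its 18 columns 9 matched their own scanner file best, 8 another array of the same group and 1 an array of another group, so it served only as an alternative and arrays are numbered by the scanner files.

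Raw mean signals were corrected with normexp (offset 50) and loess in limma 3.58.1 (R 4.3.3), with control spots at weight 0 and spots marked not uniform or outlying removed. Replicate spots were averaged per probe. Probes had to exceed the background flag of the sample channel on 3 or more arrays, and the brightest of them stood for its gene. A limma fit with 4 group means gave 5 contrasts, with Benjamini-Hochberg adjustment over all 20426 genes and calls at an adjusted p under 0.05. The fit was tested on simulated data. The number of arrays limits the precision. Figures used Python with matplotlib.

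The 44 genes, the lists and the alternatives were chosen with earlier results of these data known. Every one of the 44 genes could be named; of the other lists, the 3 called genes with the largest rise and the 3 with the largest fall, or the gene with the lowest adjusted p where none was called. A gene that this rule would name is not reported here. Probe names and coordinates are those of the file headers (build mm7); exon and UTR annotation was not used here. Replicate numbers paired CMP with TMP, where deviations from the group means of same-numbered arrays correlated by 0.66, 0.74 and 0.81 and shared a slide. They paired the other groups only in part (-0.26 to 0.46). The same number was the best partner for CSP and TSP numbers 3, 4 and 5 (0.33, 0.22 and 0.46), and not for 1, 2 and 6. It was also the best partner for CSP 1 with CMP 1 (0.14) and TSP 2 with TMP 2 (0.21). Alternatives covered the background correction, normalization, probe filter and choice, slide, replicate block, the groups fitted, the authors' table and each array left out.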

Additional observations from a re-analysis of the deposited data

Results flagged for a closer look

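In the groups of 6 arrays, 94 sets of values (43 genes and 4 class means, in CSP and in TSP) were examined for an array far from the others, and 5 stood out. Chance marks about 1 in 20 such sets, so 5 of 94 is close to that share. Tk1, thymidine kinase, was -1.79 on CSP 5 with the nearest CSP array at -0.31, and -1.2 on TSP 5 with the nearest TSP array at -0.5. Aurka was 0.06 on CSP 6 with the nearest at -1.17, and Foxm1 was 0.62 on CSP 6 with the nearest at -0.23. Bub1 was -2.75 on TSP 5 with the nearest at -1.46. CSP 5 and TSP 5 also had the lowest mean of the mitosis genes in their groups, and CSP 6 the highest.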

How the results depend on the processing

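The count of 6 genes lower in CSP than in CMP was 11 with slide as a block, 2 with scaling between arrays (Ccnd1 and Gmnn, with 2.95% of all genes called) and 0 within slide 4 alone (2 arrays against 1, 0% of all genes). Leaving out 1 array at a time gave 3 to 8 calls, and 5 to 9 with TSP 1 and TSP 2 left out too: 3 without CMP 2, when Gmnn, Ccnd2 and Cdkn2b were lost, and 8 without CSP 6, when Cdc6, Mcm4 and Ccna2 were gained and Cdkn2b was lost. Of all genes, 2.79% were called without CMP 2 and 15.6% without CSP 6, 2.79% to 16.4% over these fits, and 13.1% to 20% with TSP 1 and TSP 2 left out too. The count of 0 between TSP and TMP became 5 without TSP 1 and TSP 2, 6 with slide as a block as well, and 5 without the 4 arrays of slide 1. With 1 array left out it was 0 to 1, and with a further array left out beside that pair 2 to 6, with 2 without TMP 3 and 3 without TSP 3 or TSP 5. Between TSP and CSP, 13 genes were called within slide 1, where TSP 1 and TSP 2 met CSP 1 and CSP 2 and 40.7% of all genes were called, and 0 within slide 3. The causes were not tested. No called difference of a gene changed sign under any alternative run.

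With the replicate number as a block, 7 genes were called between CSP and CMP, of which 5 were among the 6, with Mcm4 and Ccna2 gained and Cdkn2b lost, against 9.84% of all genes. The block left the counts of the other comparisons at 0, including TMP against CMP, where the numbers pair the arrays. Median centring moved the median over all genes from 0.06 to -0.08 in CSP against CMP and from -0.04 to 0.24 in TSP against CSP. It also lowered the share of higher genes among all called in CSP against CMP to 32.5%, from 51.3%, and slide as a block raised it to 61.8%. The alternatives of leaving out slide 1, TSP 1 and TSP 2 with slide as a block, and TSP 1 and TSP 2 with a further array, were chosen after seeing the data. Arrays on slides 1 and 5 had fewer spots well above background (38.8% to 53.7%), and 9 of the 43 genes were not well above background on every array.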
